A study of Brachypodium distachyon with 9 samples.

Results

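The 150 genes described here are nuclear protein-coding genes of the grass Brachypodium distachyon 21-3 whose transcripts were high in wild type replicate 1, intermediate in replicate 3 and low in replicate 2. The rule that chose them used only those wild type values, and was set with earlier results of these data known. It was applied to the 16089 protein-coding genes with a mean of at least 50 in wild type on the authors' median ratio normalized scale. That scale divides each count by 1 size factor per library. Of the 16089 genes, 2918 followed the order, and the 150 with the highest ratio of replicate 1 to replicate 2 (each value plus 1) were taken, leaving out CBF5, CBF7 and MPK3. The whole normalized table held 28454 features.

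RNA came from whole aboveground shoots at the 5-leaf stage, after 18 days of growth and 15 days without water, collected 3 h after dawn. The genotypes were the CRISPR/Cas9 mutant gf14h-1, whose 14-3-3 gene GF14h carries a homozygous exon 1 mutation, the CRISPR/Cas9 mutant hdac19-2b, whose gene HISTONE DEACETYLASE 19 carries one likewise, and wild type of the same 21-3 background, with 3 biological replicates each. Both mutations create an early stop codon. Each mutant was represented by a single allele, and all 9 libraries came from droughted plants, with no watered group among the samples used here. GF14h and HDAC19 themselves are not analysed here, since the sources used pair neither with a locus.

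Transcript levels of stress-responsive genes can change within a short time of a stimulus, so plants of the same genotype sampled together can differ in them. C-repeat binding factors, AP2/ERF proteins that switch on cold and dehydration genes in Arabidopsis, and MAP kinase 3, which relays wounding, pathogen and osmotic signals there, belong to this kind. Whether the 150 genes do was not tested. The 3 genes left out by name had the order of the 150 in wild type. CBF7 had 38.1, 80.2 and 52.6 in gf14h-1 replicates 1, 2 and 3 and 37.65, 28.4 and 16.0 in hdac19-2b, against 874, 163 and 308 in wild type, and all 6 mutant libraries lay below the lowest wild type library. MPK3 had 467, 595 and 894 in gf14h-1 and 501, 287 and 290.03 in hdac19-2b, against 2263, 647 and 1117 in wild type, and only gf14h-1 replicate 3 among the mutant libraries lay inside the wild type range. CBF5 was listed at 0 in all 6 mutant libraries, against 77.1, 9.83 and 17.3 in wild type, a mean under the minimum of 50.

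Gene names were scarce. All 150 matched a RefSeq locus with the same start position, but only 2 carried a description beyond a locus number, an expansin-B6-like gene and a MADS-box transcription factor 32-like gene. Of 24 gene lists searched by name, 7 had any annotated feature and 2 had a member among the 150, so the genes are described below by locus.

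Library totals ran from 3302835 counts in gf14h-1 replicate 3 to 36632994 in wild type replicate 3. A single count was worth 4.78 normalized units in gf14h-1 replicate 3 and 0.376 to 1.14 in the other libraries, so low values of that library are coarse. Within-genotype correlations of log2 CPM ran from 0.824 to 0.940, and the lowest involved gf14h-1 replicate 3. The chloroplast genes rbcL, psbA and psaA, markers of green tissue, were at 0 in no library. They summed to 34398, 72762 and 51589 units in gf14h-1 replicates 1, 2 and 3. In hdac19-2b the sums were 68471, 48235 and 33452, and in wild type 36861, 62149 and 86549. This is the order of the medians of the 150 genes, given below, in hdac19-2b but not in gf14h-1. In wild type, replicate 1 had the lowest sum, where the 150 genes were highest. The 31 features described as MADS-box, a family with many genes of reproductive tissue and some of vegetative tissue, had 1 to 10 members at 0 in a library. They summed to 6951, 8047 and 8737 units in gf14h-1 replicates 1, 2 and 3 and 6307, 6076 and 5438 in hdac19-2b, against 6849, 6171 and 7492 in wild type. Within each mutant this is the order of the medians of the 150 genes given below, while in wild type replicate 3 was the highest; the part of these genes in the results was not tested. The header of the wild type replicate 1 column starts with HS where the other 8 start with HJ, and what the letters stand for is not given in the sources used here.

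In wild type the ratio of replicate 1 to replicate 2 had a median of 4.97 over the 150 genes and reached 53.2. These values made the choice and carry no test. The median level was 273 in replicate 1, 50.2 in replicate 2 and 114 in replicate 3. At the edge of the list, LOC100828724 and LOC100844236 had ratios of 3.45 and 3.43, and the first genes outside, LOC100821805 and LOC100845913, had 3.41 and 3.41. Near the minimum mean, LOC100823937 and LOC100832706 were inside with wild type means of 51.7 and 52.1, and LOC100843341 and LOC100829438 were outside with 49.9996 and 49.8. The order replicate 1 over 3 over 2 was followed by 18.1% of the eligible genes, against 14.2% to 18.5% for the other 5 orders. Among genes as far apart as the last one taken, it held 152, while the other orders held 12 to 60.

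The 6 mutant libraries were not used in the choice. The median level was 54.9, 75.01 and 139 in gf14h-1 replicates 1, 2 and 3 and 73.4, 64.3 and 45.4 in hdac19-2b replicates 1, 2 and 3, against 273, 50.2 and 114 in wild type. No mutant library reached the median of wild type replicate 1. The median of gf14h-1 replicate 3 lay above those of wild type replicates 2 and 3, that of hdac19-2b replicate 3 below both, and those of the other 4 mutant libraries between them. The highest of all 9 libraries was gf14h-1 replicate 3 for 17 of the 150 genes (11.3%), against 24.4% of all eligible genes. It was wild type replicate 1 for 115 (76.7%), against 9.76% of eligible genes, a count that the choice fixed in part.

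**Figure D1:**
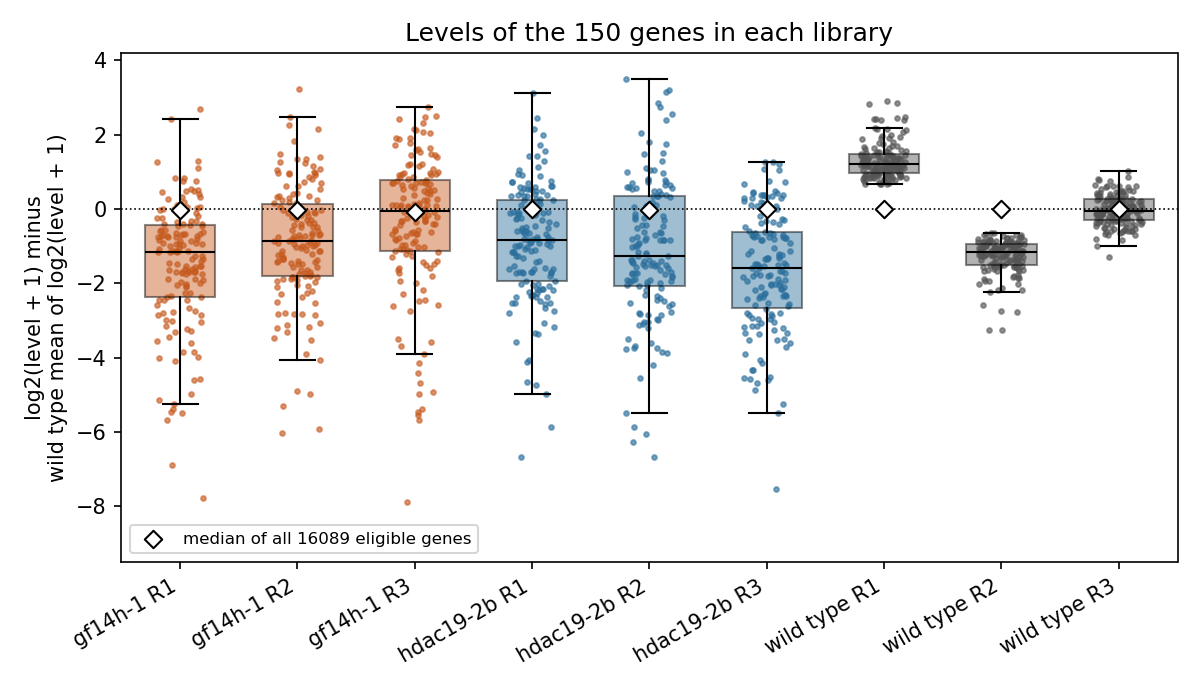
Level of each of the 150 genes in each library, as log2(level + 1) minus its wild type mean. Boxes give the median and quartiles, whiskers reach 1.5 times the box height, points are genes and diamonds are the medians of all 16089 eligible genes. The gf14h-1 medians lie between −1.16 and −0.06, the hdac19-2b medians between −1.60 and −0.83, and the spread of the wild type boxes was fixed by the choice.

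Relative to the wild type mean on the log2(level + 1) scale, the median of the 150 genes was −1.16, −0.86 and −0.06 in gf14h-1 replicates 1, 2 and 3, and −0.83, −1.26 and −1.60 in hdac19-2b replicates 1, 2 and 3. The medians of all eligible genes were within −0.07 to 0.01 in every library. Averaged over replicates, the median difference from wild type was −0.75 in gf14h-1 (lower in 110 of 150) and −1.25 in hdac19-2b (lower in 115 of 150), against −0.06 and −0.01 for all eligible genes. Since the wild type values chose the genes, these differences are descriptions only. They also rest on wild type replicate 1, without which the medians were −0.16 in gf14h-1 and −0.65 in hdac19-2b. Both comparisons share the wild type libraries.

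Counts of genes without overlap are likewise descriptions. All 3 gf14h-1 libraries lay below all 3 wild type libraries for 20 of the 150 genes (background 6.25% of eligible genes) and above them for 1 (background 5.22%). All 3 hdac19-2b libraries lay below wild type for 44 (background 10.1%) and above for 2 (background 7.47%). Without wild type replicate 2, the lowest by the choice, the counts below were 68 in gf14h-1 and 98 in hdac19-2b. Without gf14h-1 replicate 3 the first count was 36, and without hdac19-2b replicate 1 the second was 68. Leaving out a library can only keep or raise such a count. The share of eligible genes was not computed with a library left out, and the backgrounds above hold for 3 against 3 libraries. All 6 mutant libraries lay below all wild type libraries for 18 of the 150 genes, and for 389 of the eligible genes (2.42%).

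A list built by the same rule with the opposite wild type order (replicate 2 over 3 over 1) behaved differently from the 150 genes in these measures. Its median difference from wild type was −0.02 in gf14h-1 and 0.08 in hdac19-2b, and 3 and 8 of its 150 genes lay below wild type without overlap. It was added after the values were seen and has no test. This list also varied less in wild type, with a median SD of log2(level + 1) of 0.71, against 1.20 for the 150 genes. Only 32 genes in that order were as far apart as the last of the 150. The list is therefore not matched to the 150 genes in wild type range, here or where it is cited below.

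The genes with the widest wild type range showed different mutant patterns. LOC106866137 (chromosome 2, 35609406 to 35609819, Brachypodium_distachyon_v3.0) had 2.20, 1.74 and 0 units in gf14h-1 and 41.5, 340.2 and 18.5 in hdac19-2b, against 168, 2.18 and 50.3 in wild type. LOC100844775, 2 genes further on (35646551 to 35647133), had 43.2, 34.0 and 14.3 in gf14h-1 and 173, 670.2 and 39.5 in hdac19-2b, against 487, 8.74 and 169 in wild type. In both genes hdac19-2b replicate 2 was the highest of the 9 libraries and wild type replicate 2 was near the bottom.

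The same libraries were high for a neighbouring couple elsewhere on chromosome 2. LOC100827160 (39139139 to 39139723) had 3.66, 17.4 and 0 in gf14h-1 and 29.2, 339 and 15.1 in hdac19-2b, against 380 (379.7), 6.55 and 45.1 in wild type. Its immediate neighbour LOC112270584 (39137409 to 39137860) had 110 (109.8), 17.4 and 28.7 in gf14h-1 and 79.1, 184 and 30.3 in hdac19-2b, against 483, 20.8 and 65.7 in wild type. In both, hdac19-2b replicate 2 was the highest mutant library, and the mutant and wild type groups overlapped.

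Another pattern was a high gf14h-1 replicate 3. LOC100842218 (chromosome 2, 58091526 to 58092302) had 74.7, 128 and 358 in gf14h-1 and 118, 33.0 and 10.9 in hdac19-2b, against 2441, 65.5 and 574 in wild type. LOC100826419 (chromosome 1, 16208852 to 16211147) had 139.9, 95.1 and 430.2 in gf14h-1 and 69.9, 30.7 and 43.7 in hdac19-2b, against 2181, 117 and 267 in wild type; all hdac19-2b libraries lay below wild type and the gf14h-1 libraries overlapped with it. LOC100835190 (chromosome 1, 15575696 to 15576345) had 156, 256 and 439.7 in gf14h-1 and 155, 36.4 and 34.5 in hdac19-2b, against 754, 36.0 and 43.2 in wild type.

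The remaining 3 of the 10 widest genes were LOC100827751, LOC100828602 and LOC104581552. LOC100827751 (chromosome 1, 23106431 to 23108125) had 63.0, 453 and 444 in gf14h-1 and 32.3, 38.7 and 20.2 in hdac19-2b, against 458, 20.8 and 106 in wild type, so that gf14h-1 replicates 2 and 3 came close to wild type replicate 1. LOC100828602 (chromosome 3, 5014651 to 5015696) had 13.2, 3.49 and 0 in gf14h-1 and 15.4, 4.55 and 0.841 in hdac19-2b, against 318, 8.74 and 27.1 in wild type. LOC104581552 (chromosome 1, 2533872 to 2534642) had 0, 15.7 and 19.1 in gf14h-1 and 7.68, 0 and 0 in hdac19-2b, against 152, 6.55 and 77.8 in wild type. The hdac19-2b libraries 2 and 3 and gf14h-1 replicate 1 were at 0, and both mutants overlapped with wild type replicate 2.

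**Figure D2:**
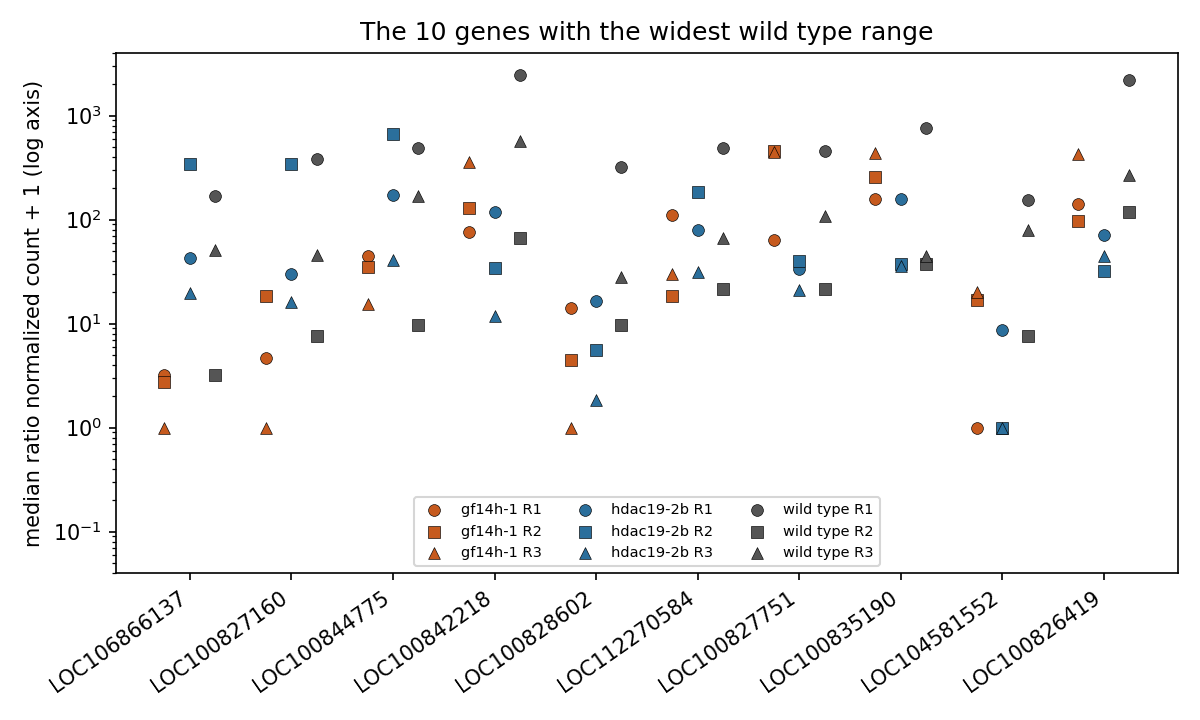
Median ratio normalized count plus 1 (log axis) of the 10 genes with the highest wild type ratio, in gf14h-1 (orange, left), hdac19-2b (blue, middle) and wild type (grey, right); circles, squares and triangles are replicates 1, 2 and 3. The blue squares are the highest points in LOC106866137 (340.2) and LOC100844775 (670.2), and the orange points of LOC100827751 reach 453.

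The 2 genes with a description had modest values. LOC100843684 (chromosome 3, 35254441 to 35256091) is expansin-B6-like. Beta-expansins loosen the cell walls of grasses. It had 18.3, 2.62 and 4.78 units in gf14h-1 and 39.96, 43.2 and 12.6 in hdac19-2b, against 141, 9.83 and 19.9 in wild type, with overlap between all groups. LOC100833578 (chromosome 2, 48707446 to 48709437) is MADS-box transcription factor 32-like; in rice the gene of that name acts in floral organ development. It had 76.1, 204 and 277 in gf14h-1 and 88.4, 78.5 and 94.2 in hdac19-2b, against 132, 25.1 and 115 in wild type. The hdac19-2b libraries lay close together, inside the wild type range.

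The 5 genes lowest in the mutants relative to wild type come next. LOC100834335 (chromosome 3, 40359281 to 40360482) had 17.6, 15.7 and 43.0 in gf14h-1 and 5.38, 10.2 and 2.52 in hdac19-2b, against 1726, 277 and 595 in wild type. LOC100823053 (chromosome 2, 33398110 to 33399971) had 3.66, 6.98 and 0 in gf14h-1 and 3.07, 9.10 and 9.25 in hdac19-2b, against 699.5, 117 and 161 in wild type. In both, every mutant library lay below wild type replicate 2, the lowest of its group.

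The next 3 genes of this kind stood at 0 in at least 1 mutant library or near it. LOC100846330 (chromosome 4, 5473839 to 5477258) had 0, 2.62 and 47.8 in gf14h-1 and 7.68, 78.5 and 8.41 in hdac19-2b, against 847, 91.7 and 136 in wild type. LOC100842630 (chromosome 1, 48426717 to 48427942) had 9.52, 28.8 and 4.78 in gf14h-1 and 9.22, 0 and 2.52 in hdac19-2b, against 187, 44.8 and 126 in wild type. LOC100837855 (chromosome 1, 2536252 to 2537067) had 5.86, 14.0 and 0 in gf14h-1 and 0.768, 2.28 and 0.841 in hdac19-2b, against 110.4, 14.2 and 60.5 in wild type. No mutant library exceeded the lowest wild type library in any of these 3 genes.

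The mean log2 level over the 6 mutant libraries was above the wild type mean for 32 of the 150 genes and below it for 118. The 5 highest on that measure are given here. LOC100832706 (chromosome 1, 16883347 to 16884281) had 283, 413 and 296 in gf14h-1 and 196, 408 and 73.1 in hdac19-2b, against 98.03, 24.03 and 34.2 in wild type. It was the only one whose gf14h-1 libraries all exceeded wild type, while hdac19-2b replicate 3 lay inside the wild type range. LOC100828063 (chromosome 1, 23118231 to 23120045) had 149, 372 and 206 in gf14h-1 and 802, 492 and 351 (350.6) in hdac19-2b, against 348, 79.7 and 109 in wild type, and its hdac19-2b libraries all exceeded wild type.

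The other 3 genes of this kind overlapped with wild type replicate 1. LOC100825947 (chromosome 3, 38625741 to 38628527) had 474, 442 and 932 in gf14h-1 and 343, 1174 and 369 in hdac19-2b, against 490.1, 131 and 168 in wild type. LOC100844110 (chromosome 1, 67996886 to 67998936) had 261, 133 and 296 in gf14h-1 and 143, 638 and 134 in hdac19-2b, against 255, 60.1 and 79.3 in wild type. LOC100832479 (chromosome 3, 45835171 to 45839026) had 41.0, 89.8 and 215 in gf14h-1 and 166, 255 and 131 in hdac19-2b, against 173, 25.1 and 52.6 in wild type.

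The 3 genes with the highest counts in the mutants, a measure that also depends on transcript length, are given as examples of high levels, and that choice bears on their difference from wild type. LOC100846750 (chromosome 1, 4334505 to 4335606) had 1092, 1994 and 3432 in gf14h-1 and 1332, 1551 and 845 in hdac19-2b, against 4065, 1146 and 2015 in wild type. LOC100845127 (chromosome 1, 73840151 to 73840757) had 771, 1134 and 2844 in gf14h-1 and 1418, 1364 and 1143 in hdac19-2b, against 3044, 861 and 1258 in wild type. LOC100824662 (chromosome 1, 18286329 to 18288878) had 632, 1510 (1509.8) and 2409 in gf14h-1 and 1014, 1395 and 841 in hdac19-2b, against 1370 (1369.5), 380 (380.1) and 1125 in wild type. In each, the gf14h-1 libraries spread about as widely as wild type, and the hdac19-2b libraries less.

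The question whether genes that varied in step among wild type plants also did so among mutant plants was described from the mutant libraries alone. Of the 150 genes, 84 had their highest mutant level in gf14h-1 replicate 3, 25 in replicate 2 and 6 in replicate 1 of that genotype, and 23 in hdac19-2b replicate 2, 9 in its replicate 1 and 3 in its replicate 3. Among all eligible genes the highest mutant library was gf14h-1 replicate 3 for 30.2%, its replicate 2 for 14.9% and its replicate 1 for 22.0%. For hdac19-2b the shares were 11.1% in replicate 2, 8.81% in replicate 1 and 13.0% in replicate 3. The counts for gf14h-1 replicate 2 (16.7% of the 150 genes) and hdac19-2b replicate 1 (6%) were thus near the background. The lowest mutant library was hdac19-2b replicate 3 for 48 of the 150 genes (32%, against 15.5% of eligible genes) and gf14h-1 replicate 1 for 41 (27.3%, against 18.1%). It was gf14h-1 replicate 3 for 14 (9.33%, against 33.9%). The commonest order within gf14h-1 was replicate 3 over 2 over 1, in 66 of the 150 genes (44%) and 23.6% of eligible genes. Within hdac19-2b it was replicate 2 over 1 over 3, in 46 (30.7%, against 16.3%). Replicate 1 over 2 over 3 came close, in 43 (28.7%, against 21.5%).

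**Figure D3:**
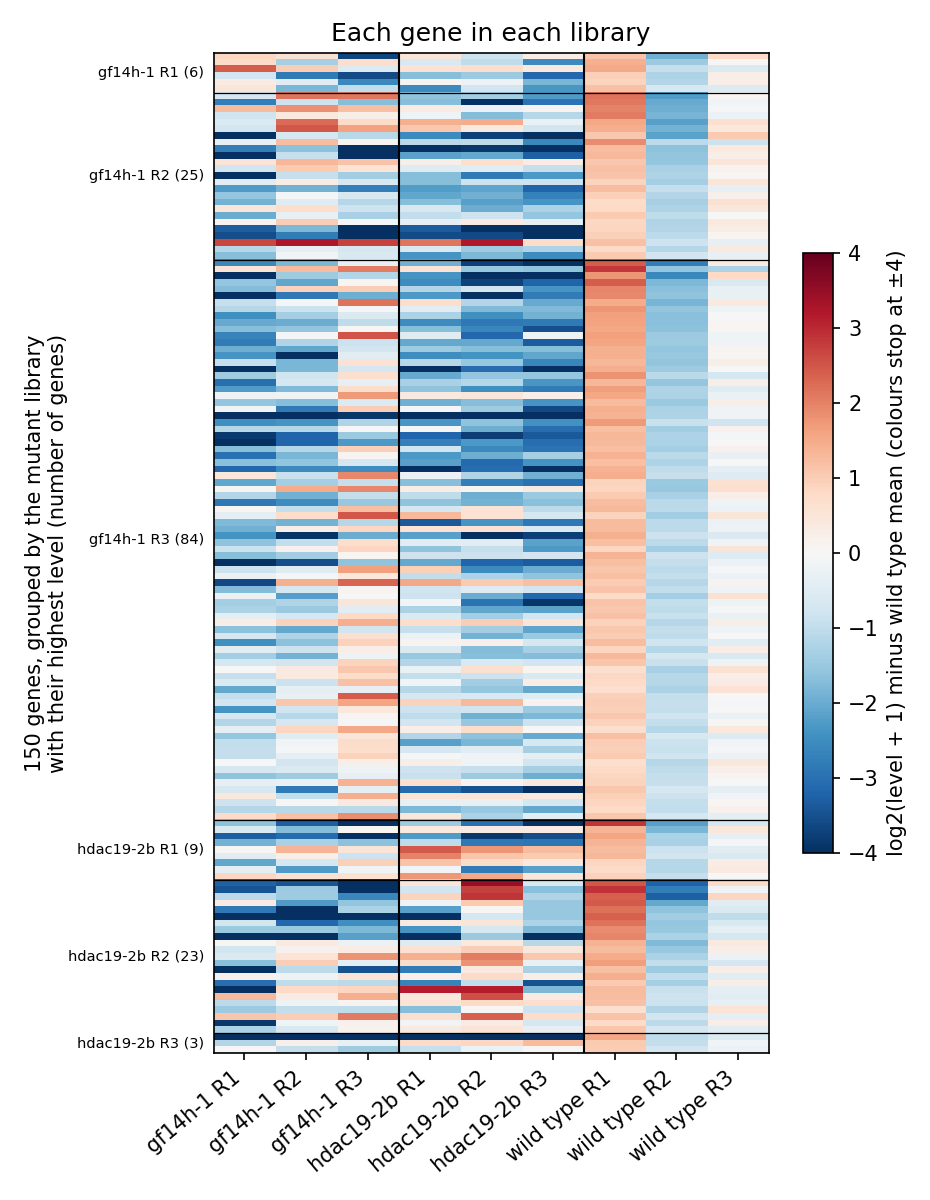
Each of the 150 genes (rows) in each library (columns), as log2(level + 1) minus its wild type mean, with rows grouped by the mutant library in which the gene was highest. The largest block holds the 84 genes highest in gf14h-1 replicate 3 among the mutant libraries, and most rows are blue in gf14h-1 replicate 1 and hdac19-2b replicate 3.

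Over the 11175 pairs of these genes, the median correlation of log2(level + 1) across the 6 mutant libraries was 0.29, with 67.5% of pairs positive. Over all pairs of eligible genes it was 0.00 (−0.0009), with 49.9% positive, and in the opposite-order list it was 0.05. The pairs share the same 6 libraries and their depths, so this is a description. The genes also spread more between mutant replicates. Their median SD of log2(level + 1) was 0.96 in gf14h-1 and 0.60 in hdac19-2b (n = 3 each), against 0.47 and 0.24 for all eligible genes. Among genes with a mean of 50 to 200 units over the mutant libraries, it was 0.93 and 0.53 for 81 of the 150 genes, against 0.59 and 0.30 for 4483 other eligible genes. Short genes outside the 150 also spread widely in gf14h-1. For genes with an annotated span under 1000 bp, the SD in gf14h-1 was 0.97 for 48 of the 150 and 0.82 for 607 others. In hdac19-2b it was 0.64 and 0.32. From 1000 to 2000 bp it was 1.05 and 0.64 in gf14h-1 and 0.59 and 0.29 in hdac19-2b. Without gf14h-1 replicate 3 the SD of the 150 genes in gf14h-1 was 0.61, and the matching value of the other genes was not computed.

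Annotated gene span was shorter in the chosen genes than in all eligible genes. The 150 genes had a median span of 1263 bp, against 3762 bp for all eligible genes and 2985 bp for the opposite-order list. The span is the gene length in the deposited annotation, which mostly equals RefSeq start to end, introns included. In a few genes it was shorter, as in LOC100821581, with 4400 bp for positions 24244354 to 24253375. Spans under 2000 bp were held by 32% (under 1000 bp) plus 40.7% (1000 to 2000 bp) of the 150 genes, and by 3.81% plus 13.5% of the other eligible genes. The span was not part of the choice.

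Short genes outside the 150 showed a like order of libraries. For the 607 such genes under 1000 bp, the median relative to the wild type mean was −0.58, −0.15 and 0.86 in gf14h-1 replicates 1, 2 and 3, and 0.11, −0.08 and −0.30 in hdac19-2b replicates 1, 2 and 3, against 0.27, −0.32 and 0.05 in wild type replicates 1, 2 and 3. For the 7340 genes of 4000 bp or more it was 0.16, 0.03 and −0.41 in gf14h-1 and −0.06, −0.01 and 0.08 in hdac19-2b, against −0.07, 0.07 and 0.01 in wild type. Within each genotype, hdac19-2b included, the order of the libraries for these 607 short genes was that of the medians of the 150 genes.

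**Figure D4:**
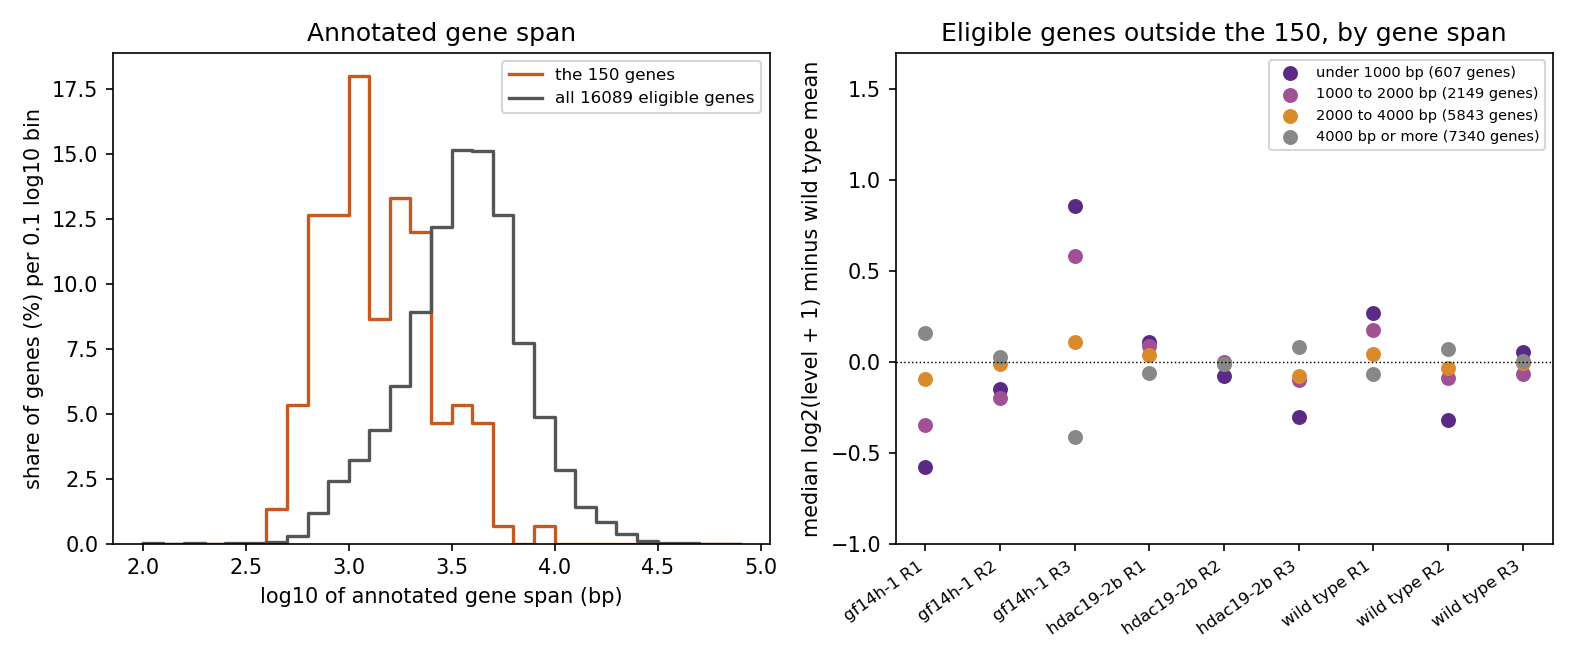
Left, share of genes per 0.1 log10 bin of annotated span, for the 150 genes (orange) and all 16089 eligible genes (grey). Right, median log2(level + 1) minus the wild type mean in each library for eligible genes outside the 150, by span class; in gf14h-1, genes under 1000 bp reach 0.86 in replicate 3 and −0.58 in replicate 1.

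Within a span class the size of the step could be set side by side. Under 1000 bp, the median log2 difference of gf14h-1 replicate 3 over replicate 1 was 1.20 in 48 of the 150 genes and 1.46 in the other genes. From 1000 to 2000 bp it was 1.34 in 61 of the 150 genes and 0.97 in the others, and from 2000 to 4000 bp 0.89 in 32 and 0.20 in the others. At 4000 bp or more it ran the other way, at −0.21 in 9 of the 150 genes and −0.58 in the others. The step of hdac19-2b replicate 1 over replicate 3 was 0.94, 0.76, 0.30 and 0.20 in those classes of the 150 genes, from short to long, against 0.41, 0.22, 0.10 and −0.14 in the others. The median difference from wild type was −1.04 in gf14h-1 and −1.56 in hdac19-2b for the 48 genes under 1000 bp, against −0.0037 and −0.10 for the other genes of that span. In the 9 of the 150 genes of 4000 bp or more it was −0.39 and −0.37. The part of gene span in the pattern of the 150 genes was not tested.

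Members also lay near each other on the chromosomes. Of the 150 genes, 26 (17.3%) lay within 3 annotated protein-coding genes of another, in 12 groups of neighbours, against 9 (6%) in the opposite-order list. Chromosomes 1 to 5 carried 45, 41, 36, 15 and 13 of them. The neighbours named next were chosen after their values were seen. In 8 of the 12 groups the median correlation of neighbours across the 6 mutant libraries was above 0.5, and in 3 it was below 0. All pairs of the 150 genes had a median of 0.29, and the share of other pairs above 0.5 was not computed. Neighbouring genes that are near-identical copies can share reads, and no sequence was used here to tell.

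On chromosome 4, LOC100821640 (37296793 to 37297527) and LOC100837121 (37303248 to 37303947) had a correlation of 0.96 over the 6 mutant libraries. LOC100821640 had 41.0, 76.8 and 354 in gf14h-1 and 130 (129.9), 34.1 and 18.5 in hdac19-2b, against 221, 20.8 and 103 in wild type. LOC100837121 had 116, 141 and 244 in gf14h-1 and 185, 75.1 and 74.0 in hdac19-2b, against 866, 85.2 and 226 in wild type. By contrast LOC100827751 and LOC100828063, adjacent on chromosome 1 and both described above, had a correlation of −0.39. Among the mutant libraries the first was highest in gf14h-1 replicate 2 and the second in hdac19-2b replicate 1.

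Setting gf14h-1 against hdac19-2b gave a test that shared no value with the wild type choice, fitted to the 6 mutant libraries alone. With edgeR (quasi-likelihood) and Benjamini-Hochberg adjustment over 22833 features, 0 of the 144 genes that passed the expression filter were called, against a background of 0.00438% (1 feature). At an unadjusted p under 0.05 there were 31, 24 higher and 7 lower in gf14h-1. The background was 6.85% of all tested features, 3.84% higher and 3.01% lower. These features reach beyond the 16089 eligible genes, for which no such share was computed. Without the filter all 150 could be tested, and 33 had an unadjusted p under 0.05, 25 higher and 8 lower (background 7.01%, with 3.45% higher and 3.56% lower). The DESeq2 Wald test called 5 of the 150 genes at an adjusted p under 0.05 (background 0.682%). In simulated counts for this comparison, the edgeR test recovered 2.99%, 64.2% and 80.3% of features changed 2-, 4- and 8-fold. It also called 10 unchanged features. The changed features were drawn from all tested features above a minimum mean level, so the rates do not cover the lowest genes. Each feature was simulated independently, without shifts shared within a library. The 150 genes spread more between mutant replicates than eligible genes did, so the rates are not rates for them. At this depth and spread, 2-fold differences were mostly not detectable.

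The median log2 fold change of gf14h-1 over hdac19-2b was 0.51 over the 144 genes and 0.01 over all tested features, and 108 of the 144 were above 0. Without gf14h-1 replicate 3 it was 0.12, with 82 of 148 genes above 0 and 31 at an unadjusted p under 0.05, 15 higher and 16 lower (background 14.8%, with 6.4% higher and 8.37% lower). All 3 gf14h-1 libraries exceeded all 3 hdac19-2b libraries for 20 of the 150 genes (background 7.63%), and lay below them for 6 (background 6.76%).

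**Figure D5:**
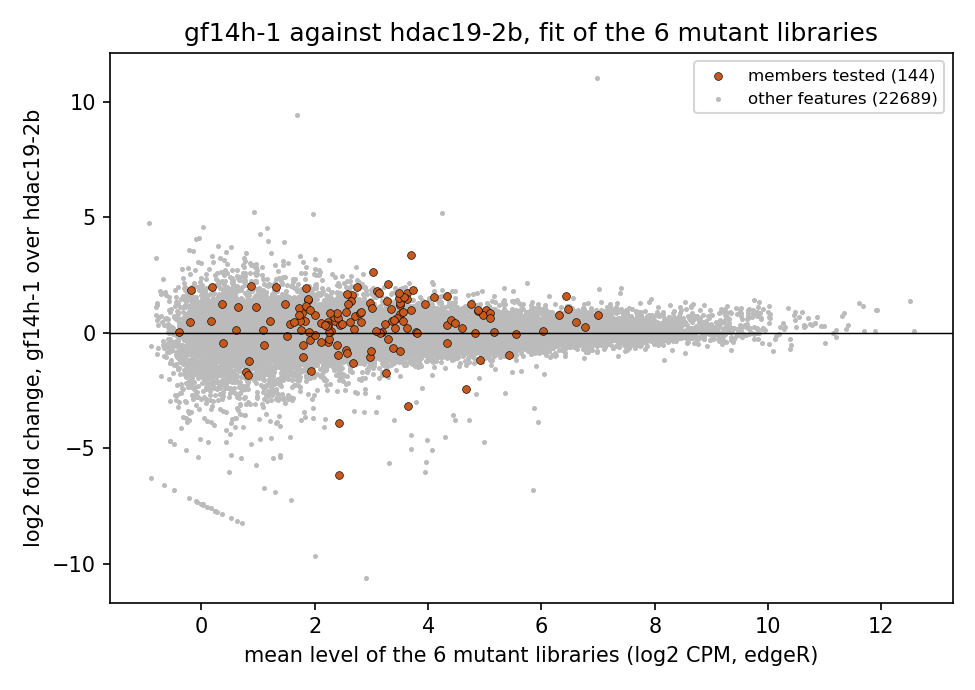
Log2 fold change of gf14h-1 over hdac19-2b against mean log2 CPM in the 6 mutant libraries, for the 144 tested genes of the 150 (orange) and all other tested features (grey). Most orange points lie above 0, with a median of 0.51, and LOC106866137 lies lowest among them at −6.15.

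Nearest to the threshold was LOC100827751, whose levels were given above, with a log2 fold change of 3.37 (SE 0.70) and higher in 3 of 3 gf14h-1 libraries. LOC106866137 had −6.15 (SE 1.32) and was lower in 3 of 3, with only a few counts in gf14h-1; without hdac19-2b replicate 2 the value was −4.11. LOC100827152 (chromosome 2, 13721714 to 13722670) had 893, 2546 and 1687 units in gf14h-1 and 615, 691 and 404 in hdac19-2b, against 5112, 1170 (1169.8) and 2984 in wild type, and a log2 fold change of 1.58 (SE 0.39). The Benjamini-Hochberg adjusted p from edgeR was 0.517 for LOC100827751, 0.517 for LOC106866137 and 0.531 for LOC100827152. Over all settings tried, edgeR and DESeq2 included, the Benjamini-Hochberg adjusted p ran from 6.1e-04 to 1.00 (0.999861) for LOC100827751, from 4.6e-04 to 1.00 (0.999639) for LOC106866137 and from 0.0226 to 1.00 (0.999861) for LOC100827152, where the lowest values came from DESeq2. Without gf14h-1 replicate 1, LOC100827751 passed in edgeR, with a Benjamini-Hochberg adjusted p of 0.0433.

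Annotated families were read in the same edgeR fit. Of 31 MADS-box features, the gene LOC100833578 of the 150 among them, 21 were tested and 0 were called. At an unadjusted p under 0.05, 2 of the 21 were higher and 2 lower in gf14h-1, where the background was 3.84% higher and 3.01% lower, and their median log2 fold change was 0.46. Of 26 annotated kinases 0 were called and 3 were higher at that level, against the same background of 3.84%, with a median of 0.24. The expansin-B6-like gene was the only feature of its list.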

How the data were processed

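Of the estimated counts that the authors deposited for each RefSeq feature, 69.1% to 83.2% per library were whole to within 0.001. A second deposited table holds median ratio normalized values (a signal unit) with annotation. Its low values step in single reads, and 99.9% to 100% of them came out whole within 0.1 once rescaled library by library. That table leaves out 153 of 28607 counted features. Tools named in the submitters' processing notes are FastQC 0.11.9, Partek, DESeq2 and HISAT2, without roles. Counter, strand setting and genome build are not given in the sources consulted, so reads of overlapping, antisense or near-identical genes may be split uncertainly.

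The members and lists were chosen with earlier results of these data known. Levels are the deposited normalized values, and log2 values use a pseudocount of 1, which understates changes of low genes. Estimated counts were rounded; the design had assumed counts. Differences between the mutants were tested with edgeR 4.0.16 (R 4.3.3; TMM, default filter, quasi-likelihood, Benjamini-Hochberg, 0.05) on the 6 mutant libraries. SE is the absolute log2 fold change over the square root of F. The fit was tested on simulated counts. DESeq2 1.42.0 was an alternative. All replicate pairs differed beyond sampling noise (the lowest chi-square was 18.0 times its degrees of freedom). P-values weigh the difference between the mutants against the spread between biological replicates, 3 per mutant. They do not cover the spread between alleles, since each mutant was a single allele. Coordinates and names come from the RefSeq table of Brachypodium_distachyon_v3.0. Genes named were the 10 with the highest ratio, those at the edges, those described, the 3 smallest p, the 5 highest and 5 lowest mutant levels relative to wild type and the 3 highest mutant means.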

Additional observations from a re-analysis of the deposited data

How the results depend on the processing

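The count of the 150 genes called between gf14h-1 and hdac19-2b, 0 in the edgeR fit of the 6 mutant libraries, was 5 with the DESeq2 Wald test and 0 to 1 when a replicate was left out. Over all features the count of 1 became 2 without the expression filter, 171 with DESeq2, 4 with all 9 libraries and 1 to 2 with a replicate left out. With RLE size factors and with the recovered whole reads both counts were as in the main fit, 0 and 1. The replicate numbers did not pair the samples (correlations of same-numbered deviations −0.12, −0.0037 and −0.11), and with the replicate block the counts were 0 of the 150 genes and 1 feature. Leaving out a replicate moved the median log2 difference from wild type between −1.31 and −0.16 in gf14h-1 and between −1.92 and −0.65 in hdac19-2b. It moved the number of genes below wild type without overlap between 20 and 68 in gf14h-1 and between 44 and 98 in hdac19-2b. Such a count can only stay or rise with a library left out, and the matching share of eligible genes was not computed. The SD moved between 0.61 and 0.98 in gf14h-1 and between 0.47 and 0.51 in hdac19-2b. Scaling by TMM, by plain CPM or with a pseudocount of 10 moved the median differences to −0.65, −0.65 and −0.67 in gf14h-1 and −1.01, −0.91 and −1.05 in hdac19-2b. The rule applied to TMM-scaled CPM kept 146 of the 150 genes, and with a pseudocount of 10 it kept 140 (140.0). The depth of gf14h-1 replicate 3, 3302835 counts, limits what can be said of genes below about 14.3 units, its level of 3 counts.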
